A study of Mus musculus with 26 samples.

Results

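Retinoic acid is commonly described as a signal that starts meiosis in fetal germ cells. Here 9 genes that make it, break it down, carry it or respond to it were followed in mouse gonads labelled XY at E13.5. By that embryonic day testis and ovary have become distinct. The 9 genes are Aldh1a1, Aldh1a2 and Aldh1a3 (synthesis), Cyp26a1, Cyp26b1 and Cyp26c1 (breakdown), Rarb (a receptor) and Crabp1 and Crabp2 (binding proteins in the cytoplasm). They were chosen by name, for their roles, out of 57186 genes in the table of all deletions and 31053 in the Meis1 table, and all 9 were found in both. The choice was made with earlier results of these data known, so it was not independent of the data. Stra8, a gene that retinoic acid can switch on in germ cells before meiosis, was read beside them.

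The 26 samples were polyadenylated RNA from microdissected gonads, separated from the mesonephros, of 3 wild-type (WT) embryos or pools, 3 labelled Fgf9 Δ306, 6 Fgf9 Δ225, 4 Fgf9 Δ104, 6 Fgf9 Δ93 and 4 Meis1 knockout (KO). Fgf9 encodes a growth factor that the fetal testis needs, and Meis1 a homeobox transcription factor. The labels give the deletions by name only. They state neither their boundaries nor whether 1 or both alleles carry them, and no strain, litter or date, so whether a sample was 1 embryo or a pool is not given. All groups are labelled XY, and no treatment is given for any group. WT and Δ306 form an earlier set of samples, and Δ225, Δ104, Δ93 and Meis1 KO a later set. Whether the sets were prepared or sequenced together is not given. In the later groups against WT, and in Δ225 against Δ306, set and genotype cannot be told apart. The later samples are called biological replicates in the labels, and for WT and Δ306 nothing says that they came from separate embryos. Their p-values then measure the spread between these samples.

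Retinaldehyde is oxidised to retinoic acid by the ALDH1A enzymes, and the acid is broken down by the CYP26 enzymes. Retinoic acid binds RAR receptors, which sit with RXR partners on paired copies of a short half-site in the DNA. Cyp26a1 and Rarb are classical direct targets, with such a pair in their promoters. In the usual account, the signal reaches germ cells in the fetal ovary, Stra8 is switched on and meiosis begins. In the fetal testis Cyp26b1 in somatic cells removes the acid, and germ cells do not enter meiosis at this age. The supporting cells of the testis are Sertoli cells, marked by Sox9 and Amh, and those of the ovary are pre-granulosa cells, marked by Foxl2.

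The promoters of Cyp26a1 and Rarb are shown because they are the ones among the members that held the receptor's repeat. RefSeq's table for GRCm38, with 250 bases before and 50 after each start site, had a window for 7 of the 9 members (Cyp26a1, Cyp26b1, Cyp26c1, Aldh1a1, Aldh1a2, Rarb and Crabp1). The windows were searched on both strands for 2 half-sites in the same direction (AGGTCA, also with G for the leading A, T for the last G, or both) with 1, 2 or 5 bases between them. The spacing of 5 was found in Cyp26a1, on the reverse strand of chr19:37697558-37697857 (plus strand gene), from position -32 to the start site. It was also found in Rarb, on the strand of the gene in chr14:16575427-16575726 (minus strand), from position -53. The Rarb window lies inside the annotated gene, at an inner start. Of all 32851 promoters in the table, 0.0974% held the repeat with 5 bases between and 0.588% held any of the 3 spacings. None of the 3 spacings was found in the windows of the other 5 members or in those of Stra8 and Rec8. Sequences are written 5′ to 3′ on the gene's strand, with the half-sites in capitals (in Cyp26a1 as their reverse complement).
Cyp26a1: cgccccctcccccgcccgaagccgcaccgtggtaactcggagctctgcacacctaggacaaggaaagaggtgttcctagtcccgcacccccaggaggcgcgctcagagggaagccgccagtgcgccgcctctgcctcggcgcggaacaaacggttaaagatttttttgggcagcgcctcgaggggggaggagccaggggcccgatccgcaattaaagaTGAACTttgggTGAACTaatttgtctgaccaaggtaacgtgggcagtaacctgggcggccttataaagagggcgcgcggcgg
Rarb: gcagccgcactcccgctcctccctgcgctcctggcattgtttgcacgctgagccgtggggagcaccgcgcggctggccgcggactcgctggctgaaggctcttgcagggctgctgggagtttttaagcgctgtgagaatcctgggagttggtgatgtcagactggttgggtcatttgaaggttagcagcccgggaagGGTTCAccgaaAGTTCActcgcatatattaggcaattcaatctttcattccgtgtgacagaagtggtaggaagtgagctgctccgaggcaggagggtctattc

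The labels were checked before the members. Fgf9 was lower than in WT in Δ306 and Δ93 (log2 fold changes of −1.94 and −1.63, adjusted p 0.0148 and 0.00532), and Meis1 was lower in Meis1 KO (−7.50, adjusted p 1.79e-04). In Δ225 and Δ104 Fgf9 was not called. The 4 Y-linked genes Ddx3y, Uty, Kdm5d and Eif2s3y summed to 31.2 to 77.2 CPM (counts scaled to library size) in WT. In 7 of the 22 libraries of the deletion table their sum was under 0.1 of the lowest WT value, at 0.0265 to 2.42 CPM, although all are labelled XY. These were Δ306 replicate 3, Δ225 replicate 4, Δ104 replicate 3 and Δ93 replicates 3, 4, 5 and 6. The remaining deletion libraries were also below WT, at 3.96 to 20.5 CPM, except Δ104 replicate 4 at 36.2 CPM. In the Meis1 table the sum was 3.67 to 15.8 CPM in Meis1 KO and 33.3 to 81.6 CPM in WT. Leaving out the 7 libraries therefore did not make the groups alike in Y-linked level. Xist, which is high in cells with an inactive X, was between 0.0492 and 6.42 CPM over the 22 libraries, with the highest value in Δ93 replicate 4. WT replicate 1 stood apart in another way, since the 8 germ cell markers summed to 14.3 CPM there against 484 and 723 CPM in the other WT libraries. Results are therefore also given without the 7 libraries of low Y-linked level, and without WT replicate 1. Leaving out WT replicate 1 changed no member's edgeR call against WT. Total counts were 11.6 to 53.4 M per library in the deletion table and 35.5 to 51.7 M in the Meis1 table. The mesonephric markers summed to 27.6 to 81.5 CPM in the deletion table, with ranges that overlapped between all groups.

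In WT gonads, the level per length (CPM per kilobase of exon) was highest for Aldh1a1, at 170 ± 9.04 (SD, n = 3). Cyp26b1 followed at 59.2 ± 8.23 and Aldh1a2 at 57.1 ± 8.61, and the libraries of these neighbours overlapped. The binding proteins came next, with Crabp1 at 12.9 ± 4.45 and Crabp2 at 7.08 ± 0.931. Aldh1a3 was at 2.02 ± 0.788 and Rarb at 0.382 ± 0.376. Cyp26a1 and Cyp26c1 were near the limit of detection at 0.0194 ± 0.00602 and 0.0192 ± 0.0332, with 5 and 4 counts over the 3 WT libraries. Breakdown in the WT testis was thus represented almost entirely by Cyp26b1 transcripts, and synthesis by Aldh1a1 and Aldh1a2.

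In Δ93, the comparison with the most member calls against WT, 4 of 8 tested members changed. Cyp26b1 and Aldh1a1 fell, and Cyp26a1 and Aldh1a3 rose, where 14.1% of all tested genes were called. In Δ306, 2 of 8 members changed, with Cyp26a1 higher and Aldh1a1 lower, against 6.43% of all genes. In Δ225, 0 of 8 members were called by edgeR, where 0.209% of all genes were (48 genes, and 3687 at an unadjusted p under 0.05). DESeq2 called 1 member in Δ225, Crabp1. In Δ104, 0 of 8 were called by edgeR, where 0.061% of all genes were (14 genes, and 3610 at an unadjusted p under 0.05), and DESeq2 also called 0. The median log2 fold change of the 8 members was 0.73 in Δ306, 0.07 in Δ93, −0.26 in Δ225 and −0.14 in Δ104, beside 0.08, 0.06, 0.04 and 0.06 over all genes. These 4 comparisons share the same 3 WT libraries. The members were chosen with earlier results of these data known, so the counts beside the shares are descriptions and not a test of the members as a set. Without the 7 libraries of low Y-linked level, 15 libraries were left and 0 members were called in Δ306 and Δ93. That fit kept 2 of 3 Δ306 libraries and 2 of 6 Δ93 libraries, and of all genes it called 25 in Δ306 and 9 in Δ93. The values were then of similar size, as given with each gene.

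**Figure D1:**
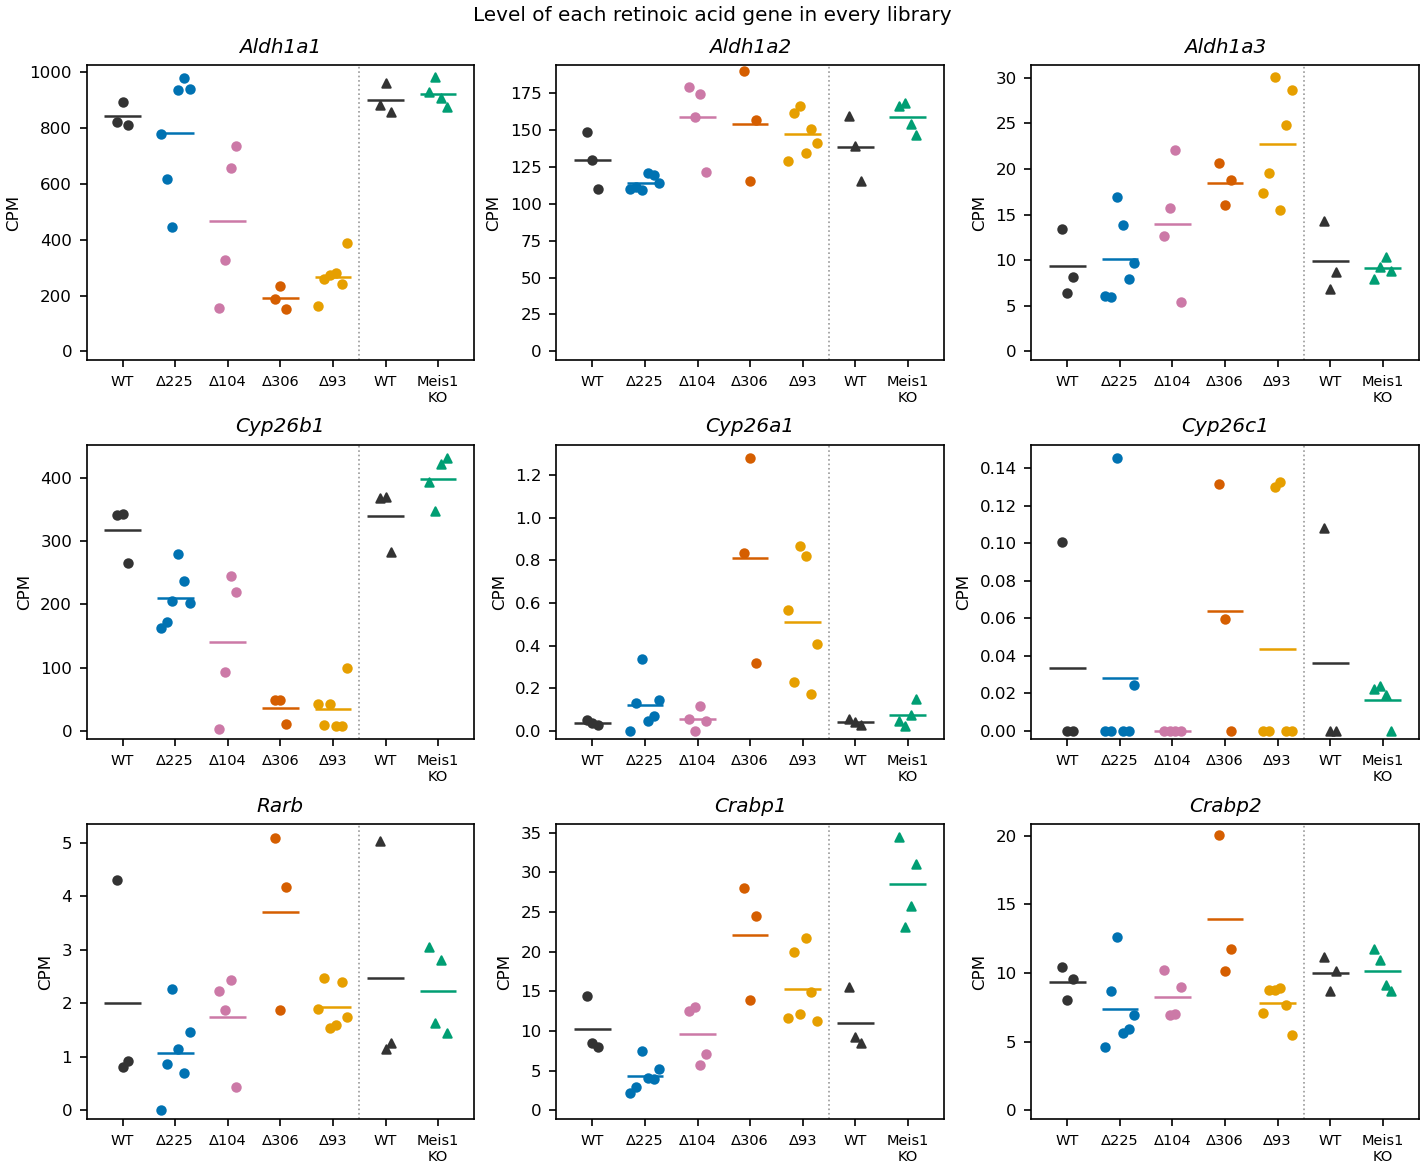
Level of the 9 genes in every library, in CPM on a linear axis from 0 (points: libraries, bars: group means). Circles are the deletion table and triangles, right of the dotted line, the Meis1 table, whose WT libraries are the same as on the left. The 3 Δ306 and 6 Δ93 libraries lie below all WT libraries for Aldh1a1 and Cyp26b1 and above them for Cyp26a1 and Aldh1a3.

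Cyp26b1 (chr6:84571414-84593908, minus strand, GRCm38), the breakdown enzyme of the fetal testis, had 342, 343 and 266 CPM in the 3 WT libraries. It had 48.5, 49.3 and 10.1 CPM in Δ306. In Δ93 it lay between 7.27 and 99.5 CPM with a median of 25.5. All 9 libraries of these deletions were below all WT libraries. The log2 fold change was −3.19 in Δ93 (SE 0.80, adjusted p 0.0112), or 9.13-fold lower. It was −3.14 in Δ306 (SE 1.03), of nearly the same size, but with an adjusted p of 0.0706 it was not called. That comparison was called by DESeq2 (adjusted p 0.0181), in a fit of the 2 groups alone (0.0108) and in the table that holds WT and Δ306 only (0.011). Without the libraries of low Y-linked level the change in Δ93 was −3.67 and not called (adjusted p 0.0981).

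The 4 Δ104 libraries did not form 1 group for Cyp26b1. Replicates 1 and 2 had 3.61 and 93.2 CPM, and replicates 3 and 4 had 245 and 219 CPM. The highest was 67.9 times the lowest, against 1.29 times in WT. All 4 were below the lowest WT library, and against WT the log2 value of −1.18 (SE 0.88, adjusted p 0.505) missed the threshold. Δ225 lay between 162 and 280 CPM with a median of 204, so its highest library overlapped WT, and the change of −0.59 (SE 0.80, adjusted p 0.72) was not called. The 95% interval of that change ran from −2.29 to 1.1.

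Of the 8 Sertoli markers tested, 1 was called lower in Δ306 (Hsd17b1) and 2 in Δ93 (Hsd17b1 and Ptgds), and 0 in Δ225 and Δ104. The share of all genes called in either direction was 6.43% in Δ306, 14.1% in Δ93, 0.209% in Δ225 and 0.061% in Δ104. The summed level of the 8 markers (Sox9, Amh, Dhh, Ptgds, Sox10, Aard, Cst9 and Hsd17b1) was 1958 to 2411 CPM in WT. It was 72.2 to 521 CPM in Δ306, 42.0 to 864 in Δ93, 27.2 to 1997 in Δ104 and 562 to 2220 in Δ225, and no marker was at 0 in all libraries of a group. Amh, which had a mean of 1448 CPM in WT, made up most of the WT sum, and it was not called in Δ306 (adjusted p 0.253) or Δ93 (adjusted p 0.0751). In bulk gonads, fewer cells of a type and less RNA per cell cannot be told apart. The part of these markers in the change of Cyp26b1 was not tested.

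Cyp26a1 (chr19:37697798-37701536, plus strand), whose promoter with the repeat is printed above, is the CYP26 enzyme that is usually induced by retinoic acid itself. It had 2, 2 and 1 counts in the WT libraries, or 0.0264 to 0.0502 CPM. It had 19, 43 and 9 counts in Δ306 (0.834, 1.28 and 0.318 CPM). In Δ93 it had 7 to 40 counts, from 0.175 to 0.867 CPM with a median of 0.487. Every library of both deletions was above every WT library, although the level stayed low. The fitted log2 fold changes were 4.39 in Δ306 (SE 0.93, adjusted p 0.00982) and 3.73 in Δ93 (SE 0.87, adjusted p 0.00748), and Cyp26a1 was called higher in both. It passed the filter on low counts through these same groups, where it was high, so its entry into the test was not independent of the result. With no filter, 2 members were called in Δ306 and 4 in Δ93. The ratio of summed counts per library size was 21.7 in Δ306 (95% interval 8.85 to 68.7, exact, counting error only) and 13.1 in Δ93 (5.44 to 40.9). Without Δ306 replicate 2 the call in Δ306 was lost (3.85, adjusted p 0.0503). Neither was called when the libraries of low Y-linked level were left out (4.73 with adjusted p 0.0717, and 3.29 with 0.0948).

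Cyp26a1 had 0 to 0.339 CPM in Δ225 and 0 to 0.116 CPM in Δ104, overlapping WT in both. Neither was called (adjusted p 0.353 and 0.843). The Δ104 libraries with little Cyp26b1, replicates 1 and 2, had 2 and 0 counts of Cyp26a1. Cyp26c1 (chr19:37685581-37693398), the third breakdown enzyme, had at most 6 counts in any library and passed the filter on low counts in neither table. It had 0 counts in all 4 Δ104 libraries, which allows up to 0.0322 CPM.

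Aldh1a1 (chr19:20492715-20643465, plus strand), a synthesis enzyme, had 821, 893 and 811 CPM in WT. It had 188, 234 and 150 CPM in Δ306, and 163 to 387 CPM in Δ93 with a median of 266. The groups did not overlap. Aldh1a1 fell in Δ306 by 2.14 on the log2 scale (SE 0.42, adjusted p 0.00694) and in Δ93 by 1.66 (SE 0.33, adjusted p 0.00317), 4.41-fold and 3.15-fold. In Δ104, replicates 1 and 2 had 154 and 325 CPM and replicates 3 and 4 had 655 and 735 CPM, all below WT. The Δ104 change of −0.85 (SE 0.37, adjusted p 0.286) was not called. Δ225 lay at 444 to 980 CPM with a median of 856, overlapping WT, and differed by −0.10 (adjusted p 0.896). The call in Δ306 was lost without Δ306 replicate 3 (−2.035, adjusted p 0.0527). With the libraries of low Y-linked level left out, Aldh1a1 was at −2.037 in Δ306 (adjusted p 0.112) and −2.05 in Δ93 (adjusted p 0.0659).

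Aldh1a7, a near copy of Aldh1a1 on the same chromosome, could share reads with it. Its level was 94.0 ± 13.3 CPM in WT (n = 3), where Aldh1a1 had 842 ± 44.6, and how reads common to both were assigned is not given in the sources used here. It too was called lower in Δ306 (−1.40, adjusted p 0.0109) and in Δ93 (−1.23, adjusted p 0.00304). Of the 4 interstitial progenitor markers used, 3 were called lower in Δ306 and 4 in Δ93, and of the 6 fetal Leydig markers, 4 in Δ306 and 5 in Δ93. In Δ225 and Δ104, 0 of either list were called. The share of all genes called in either direction was 6.43% in Δ306, 14.1% in Δ93, 0.209% in Δ225 and 0.061% in Δ104. The 4 interstitial progenitor markers used (Nr2f2, Pdgfra, Tcf21 and Wnt5a) summed to 1235 to 1460 CPM in WT, 437 to 645 in Δ306, 477 to 593 in Δ93, 465 to 1607 in Δ104 and 1142 to 1464 in Δ225. The 6 fetal Leydig markers (Cyp11a1, Cyp17a1, Hsd3b1, Insl3, Star and Lhcgr) summed to 930 to 1604 CPM in WT, 43.0 to 95.3 in Δ306 and 55.6 to 324 in Δ93. They summed to 42.4 to 1668 CPM in Δ104 and 469 to 3113 in Δ225, where the median of 2648 was above the WT median of 1341 CPM. No marker of these lists was at 0 in all libraries of a group, and their part in the change of Aldh1a1 was not tested.

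**Figure D2:**
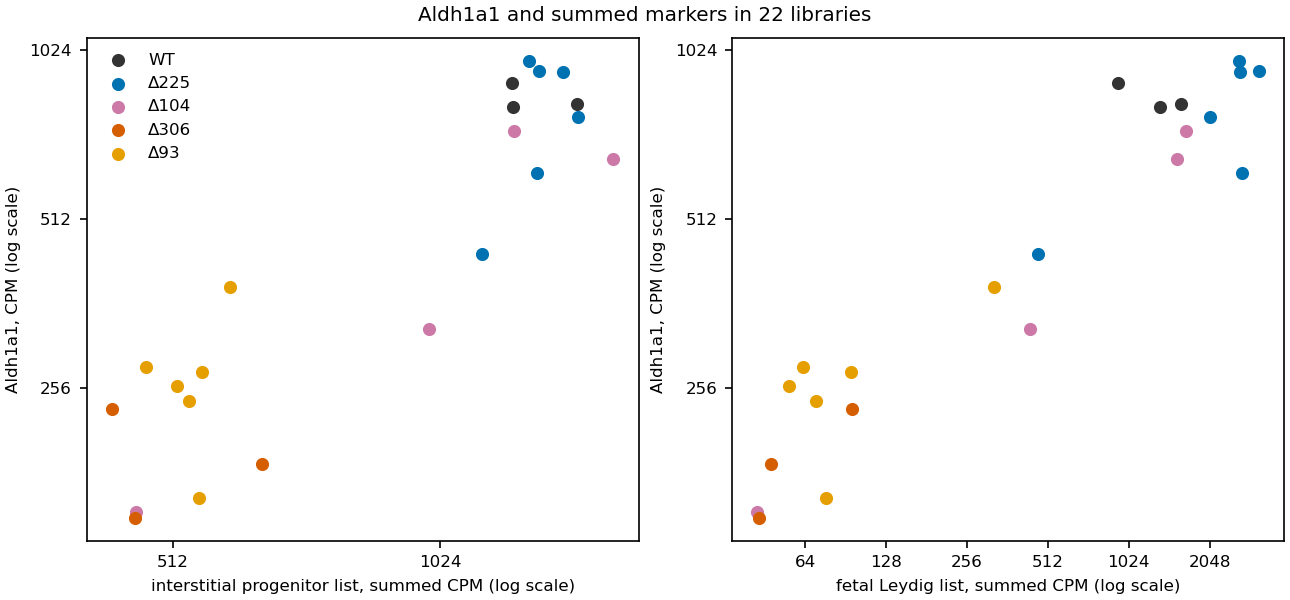
Aldh1a1 level (vertical, CPM) against the summed level of the interstitial progenitor list (left) and of the fetal Leydig list (right), in the 22 libraries of the deletion table, on log axes. Δ306 and Δ93 lie at the lower left at 150 to 387 CPM of Aldh1a1, WT and most Δ225 libraries at the upper right, and the 4 Δ104 libraries span both ends.

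Aldh1a2 (chr9:71215789-71296243), the main synthesis enzyme of many embryonic tissues, was not called against WT in any deletion. It had 149, 130 and 110 CPM in WT, 190, 116 and 156 in Δ306, 179, 159, 174 and 122 in Δ104, 129 to 166 in Δ93 and 110 to 121 in Δ225. All 4 deletion groups overlapped WT. The log2 fold changes against WT were between −0.18 and 0.29 (adjusted p 0.366 to 0.527). In Δ93 the 95% interval ran from −0.12 to 0.50.

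Aldh1a3 (chr7:66390890-66427517) was the weakest of the 3 synthesis genes. It had 13.4, 6.41 and 8.20 CPM in WT, 20.7, 16 and 18.8 in Δ306, and 15.6 to 30.1 in Δ93 with a median of 22.2. The libraries of both deletions were all above WT. Aldh1a3 rose in Δ93 by 1.28 on the log2 scale (SE 0.39, adjusted p 0.0319). In Δ306 the value was 0.99 (SE 0.43, adjusted p 0.176) and missed the threshold, but in the table of WT and Δ306 alone it was called (1.04, adjusted p 0.0393). Aldh1a3 was no longer called in Δ93 when WT replicate 2 was left out (1.05, adjusted p 0.172), nor without WT replicate 3 (1.18, 0.127), Δ93 replicate 3 (1.22, 0.0511) or the libraries of low Y-linked level (0.94, 0.327). Δ225 (5.99 to 16.9 CPM) and Δ104 (5.45 to 22.03 CPM) overlapped WT and were not called. The 8 pre-granulosa markers (Foxl2, Fst, Wnt4, Rspo1, Irx3, Bmp2, Lgr5 and Fzd1) summed to 149 to 215 CPM in WT, 519 to 832 in Δ306 and 503 to 1217 in Δ93. Of these, 5 were called higher in Δ306, where 6.43% of all genes were called. In Δ93, 7 were called higher and 1 lower, where 14.1% of all genes were called. The 5 coelomic epithelium markers (Upk3b, Krt19, Msln, Lhx9 and Upk1b) summed to 213 to 258 CPM in WT, 310.2 to 342 in Δ306 and 284 to 451 in Δ93, with 0 called in Δ306 and 2 higher in Δ93. Both sums were above WT in all libraries of Δ306 and Δ93, as Aldh1a3 was, and their part in its change was not tested.

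The levels per length show how the balance of transcripts differed. The 3 Aldh1a genes summed to 230 ± 13.4 CPM per kilobase in WT (n = 3), 111 ± 13.6 in Δ306 (n = 3) and 124 ± 18.0 in Δ93 (n = 6). The 3 Cyp26 genes summed to 59.2 ± 8.26, 7.16 ± 4.43 and 6.77 ± 6.72. The log2 ratio of synthesis to breakdown was 1.96 ± 0.127 in WT, 4.25 ± 1.23 in Δ306 and 4.83 ± 1.51 in Δ93. Transcripts for synthesis were thus lower in both deletions, but those for breakdown were lower by more. The ratio was 2.42 ± 0.326 in Δ225 (n = 6). In Δ104 it was 7.33, 3.00, 2.23 and 2.31 in replicates 1 to 4, and replicate 1 had the highest ratio of all libraries. Lowest and highest values were 1.88 and 2.11 in WT, 3.37 and 5.66 in Δ306 and 2.97 and 6.39 in Δ93, so neither deletion overlapped WT. The ratio is of RNA levels and was not tested, since the members were chosen with results of these data known.

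The makeup of both sums differed as well. Aldh1a1 made up 74.3 ± 3.08% of the Aldh1a sum in WT, 35.3 ± 9.68% in Δ306 and 43.1 ± 6.34% in Δ93. Aldh1a2 therefore ranked first of the 9 members per length in Δ306 and Δ93, at 68.0 ± 16.4 and 65.0 ± 6.64 CPM per kilobase, where Aldh1a1 had been first in WT. The libraries of Aldh1a2 and Aldh1a1 did not overlap in Δ306 and overlapped in Δ93. In Δ104, Aldh1a1 made up 27.6, 47.2, 61.9 and 73.1% of the sum in replicates 1 to 4. Cyp26a1 made up 0.03 to 0.04% of the Cyp26 sum in WT, 4.40 to 7.83% in Δ306 and 1.1 to 20.7% in Δ93.

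**Figure D3:**
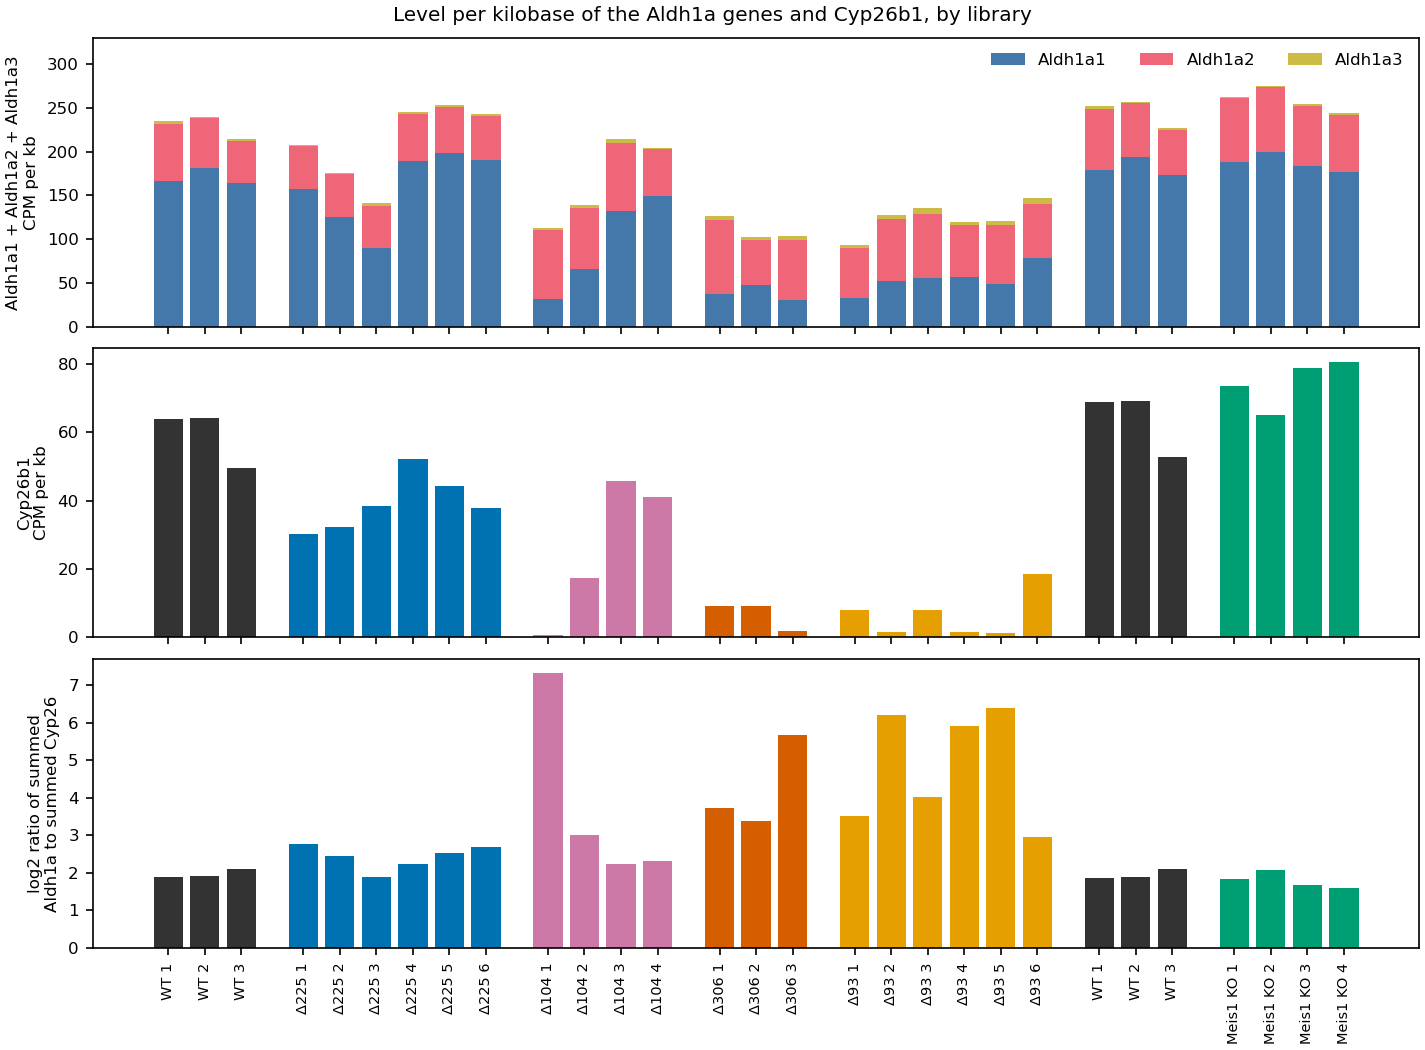
Level per kilobase of exon of the 3 Aldh1a genes (top, stacked) and of Cyp26b1 (middle), and the log2 ratio of the Aldh1a sum to the Cyp26 sum (bottom), for each library, with the Meis1 table in the last 7 bars. The ratio is 1.88 to 2.11 in WT and 2.97 to 6.39 in Δ93, and Δ104 replicate 1 has the highest, 7.33.

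Rarb (chr14:16430839-16819156, minus strand), the receptor whose inner promoter carries the repeat printed above, was not called in any comparison by edgeR with all libraries. It had 4.30, 0.816 and 0.923 CPM in WT, so the WT mean of 2.01 ± 1.98 rested on replicate 1, the library with few germ cell transcripts. It had 5.09, 1.87 and 4.17 CPM in Δ306, and 1.54 to 2.46 in Δ93. The log2 fold changes were 0.88 in Δ306 (adjusted p 0.533) and −0.05 in Δ93 (adjusted p 0.972). Without WT replicate 1 the change was 2.065 in Δ306 and 1.16 in Δ93 (adjusted p 0.171 and 0.372), and leaving out other single libraries took the Δ306 value as low as 0.453 (without WT replicate 2). In Δ225 against Δ306, DESeq2 called it lower (−1.75, adjusted p 0.0277), and so did edgeR without Δ225 replicate 3 (−2.10, adjusted p 0.0349). Of the 2 members with the repeat, Cyp26a1 was called against WT and Rarb was not, and the difference between them was not tested. Cyp26a1 had entered the test through the groups where it was high.

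Crabp1 (chr9:54764748-54773110), which binds retinoic acid in the cytoplasm, had 14.4, 8.51 and 7.99 CPM in WT. It had 28.04, 13.95 and 24.4 CPM in Δ306 and 11.3 to 21.8 in Δ93, and both overlapped WT. It was not called in Δ306 (1.103, SE 0.41, adjusted p 0.106) or Δ93 (0.57, SE 0.36, adjusted p 0.311). In the table of WT and Δ306 alone it was called (1.17, adjusted p 0.0453). In Δ225 it lay at 2.24 to 7.50 CPM, below all WT libraries. edgeR gave −1.25 on the log2 scale (SE 0.34, adjusted p 0.117) and did not call it, and DESeq2 did (−1.23, adjusted p 0.0275). Crabp2 (chr3:87948666-87953376), which delivers retinoic acid to its receptors, had 10.5, 8.04 and 9.58 CPM in WT and 4.59 to 20.1 CPM over the deletion libraries. It was not called against WT in any deletion.

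**Figure D4:**
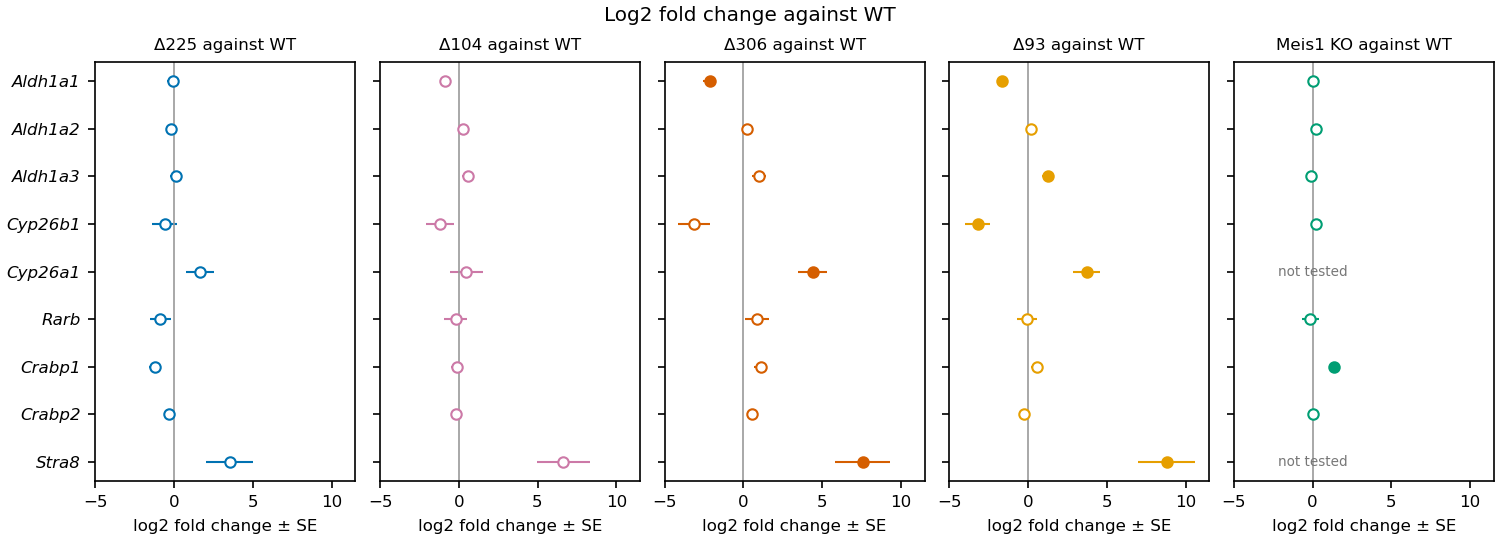
Log2 fold change against WT (horizontal, ± SE) of the 8 members that passed the filter and of Stra8, for each deletion and for Meis1 KO. Filled points were called (adjusted p under 0.05, edgeR). Cyp26b1 lies at −3.14 in Δ306 and −3.19 in Δ93, but is filled only in Δ93, where its SE is smaller.

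The comparisons between deletions asked how Δ225 stands against the others. Against Δ93, 6 of 8 members were called, where 20.8% of all genes were. Cyp26b1 was higher in Δ225 (2.60, SE 0.71, adjusted p 0.0133), and so was Aldh1a1 (1.55, SE 0.29, adjusted p 8.15e-04). Crabp1 (−1.82, adjusted p 2.55e-04), Cyp26a1 (−2.06, adjusted p 0.0182), Aldh1a3 (−1.17, adjusted p 0.00976) and Aldh1a2 (−0.36, adjusted p 0.0343) were lower in Δ225. Cyp26b1, Aldh1a1, Aldh1a2 and Crabp1 did not overlap between these groups. The share of all genes without overlap was not computed, so this is not set against a background. The Aldh1a2 call was lost in several alternatives, without Δ225 replicate 1 or 3 and Δ93 replicate 2 or 3 among them. Crabp1 was the 1 member still called without the libraries of low Y-linked level.

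Against Δ306, 4 of 8 members were called, where 13.2% of all genes were. Aldh1a1 was higher in Δ225 (2.04, SE 0.38, adjusted p 0.00207). Crabp1 (−2.35, SE 0.34, adjusted p 4.01e-04), Cyp26a1 (−2.73, adjusted p 0.0114) and Crabp2 (−0.91, adjusted p 0.0288) were lower. The difference of Cyp26b1, 2.54 (SE 0.94, adjusted p 0.0761), was not called, although the groups did not overlap, and was called by DESeq2 (adjusted p 0.021) and in a fit of the 2 groups alone (0.00773). The Crabp2 call was lost without Δ306 replicate 1 (−0.55, adjusted p 0.241) or 3 (−1.005, 0.0671) and without Δ225 replicate 4 (−0.85, 0.0544) or 5 (−0.86, 0.0523). It was also lost in a fit of the 2 groups alone (adjusted p 0.114) and with the replicate number as a block (−0.77, adjusted p 0.1). The Cyp26a1 call was lost without Δ306 replicate 2 (−2.21, adjusted p 0.0914). Aldh1a3 was called lower without Δ225 replicate 3 (−1.09, adjusted p 0.0448), and Aldh1a2 without Δ306 replicate 2 (−0.58, adjusted p 0.0379). Crabp1 alone was called without the libraries of low Y-linked level. Against Δ104, 0 of 8 members were called by edgeR, where 0.645% of all genes were (148 genes, and 2423 at an unadjusted p under 0.05), and DESeq2 called 1, Crabp1 (−1.14, adjusted p 0.0355). edgeR called Crabp1 there without Δ225 replicate 3 (−1.37, adjusted p 0.0426) and Aldh1a2 without Δ104 replicate 4 (−0.58, adjusted p 0.0178).

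In Meis1 KO, 1 of 7 tested members was called, where 1.80% of all genes were. Crabp1 rose, from 15.5, 9.19 and 8.49 CPM in WT to 34.4, 23.1, 25.7 and 31.0 CPM in Meis1 KO, with no overlap. This was 2.59-fold, or 1.37 on the log2 scale (SE 0.23, adjusted p 0.0389). Leaving out WT replicate 2, WT replicate 3 or any 1 KO replicate ended the call, at 1.21 to 1.46 and an adjusted p from 0.0949 to 0.129. Cyp26b1 had 393, 348, 422 and 431 CPM in Meis1 KO and 369, 370 and 282 in WT, 0.23 apart in log2 units (SE 0.12, adjusted p 0.35). The 95% interval ran from −0.08 to 0.54, which does not reach the size seen in Δ93. Aldh1a1 had 873 to 983 CPM in Meis1 KO, a change of 0.04 (SE 0.08, adjusted p 0.852). The ratio of synthesis to breakdown was 1.80 ± 0.213 in Meis1 KO (n = 4) and 1.96 ± 0.129 in WT (n = 3). Aldh1a7 was called higher (0.64, adjusted p 0.0338), unlike in the deletions. Cyp26a1 had 1 to 7 counts in each Meis1 KO library and was not tested.

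Stra8, a germ cell gene that retinoic acid can induce, had 0, 0.777 and 0.132 CPM in WT. It had 27.1, 64.5 and 95.9 CPM in Δ306 and 49.3 to 324 CPM in Δ93, and rose in both (7.58, adjusted p 0.0151, and 8.80, adjusted p 0.00342). In Δ104 it had 76.7 and 50.5 CPM in replicates 1 and 2 and 1.34 and 1.65 CPM in replicates 3 and 4. These are the same libraries that were low and high in Cyp26b1. In Δ225 it had 9.27, 3.86, 0, 0.927, 0.281 and 8.98 CPM in replicates 1 to 6. By edgeR with all libraries, neither Δ104 (6.65, adjusted p 0.0925) nor Δ225 (3.52, adjusted p 0.275) was called. In Δ104, DESeq2 called Stra8 higher (6.76, adjusted p 0.00129), and so did edgeR without Δ104 replicate 4 (7.04, adjusted p 0.0242). Without WT replicate 1, which had few germ cell transcripts, the change was 7.02 in Δ306 (adjusted p 0.0691) and 8.27 in Δ93 (adjusted p 0.0263). The call in Δ306 was also lost without WT replicate 3 (7.23, adjusted p 0.069) and without Δ306 replicate 3 (7.11, adjusted p 0.062). Without WT replicate 2, which had the most Stra8 of the WT libraries, the values were 9.88 in Δ306 and 11.1 in Δ93, both called. Without the libraries of low Y-linked level it was 7.10 (adjusted p 0.115) and 8.65 (adjusted p 0.0563). The germ cell markers summed to 14.3 to 723 CPM in WT, 372 to 787 in Δ306, 562 to 989 in Δ93, 153 to 916 in Δ104 and 360 to 1235 in Δ225. Stra8 was at 0.0223 to 0.432 CPM in Meis1 KO, where it did not pass the filter.

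Across the 22 libraries, log2 CPM of Cyp26b1 and Stra8 had a Pearson r of −0.81 and a Spearman rho of −0.90. Foxl2 had r 0.93 and rho 0.95 with Stra8, and Sox9 had −0.74 and −0.85, so a strong relation was not particular to Cyp26b1. By r with Cyp26b1, from highest to lowest, Stra8 ranked 15877 among 16153 genes, so other genes ran more against Cyp26b1. The libraries fall into clusters and differ in depth, so these are descriptions with no p. The Δ306 and Δ93 libraries and Δ104 replicates 1 and 2 had at most 99.5 CPM of Cyp26b1 and at least 27.1 CPM of Stra8. The WT and Δ225 libraries and Δ104 replicates 3 and 4 had at least 162 CPM of Cyp26b1 and at most 9.27 CPM of Stra8. For the other members, r with Stra8 was −0.76 for Aldh1a1, 0.52 for Crabp1, 0.48 for Aldh1a3, 0.45 for Aldh1a2, 0.18 for Rarb and −0.01 for Crabp2. After each group's mean was taken off, r was 0.72 for Foxl2, −0.47 for Sox9, −0.53 for Cyp26b1 and −0.25 for Aldh1a1. It was then −0.36 for Aldh1a3, −0.31 for Rarb, −0.31 for Crabp2, −0.02 for Crabp1 and 0.05 for Aldh1a2, so the positive r of Aldh1a3 and Rarb over all libraries turned negative, and those of Crabp1 and Aldh1a2 came near 0.

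Within the 2 groups of 6 libraries the relation could be tested, for 7 members in each, or 14 relations. None passed after Benjamini-Hochberg adjustment. Cyp26b1 had r −0.79 in Δ93 (rho −0.66, two-sided exact permutation p 0.0917 and 0.175, adjusted p 0.512 and 0.594). In Δ225 it had r −0.48 (rho −0.71, exact permutation p 0.367 and 0.136, adjusted p 0.521 and 0.594). Without the 2 libraries farthest from the median of Stra8, r was −0.64 in Δ93 and −0.82 in Δ225. The highest r was that of Crabp1 in Δ93, 0.96 (rho 0.83, exact permutation p 0.0111 and 0.0583, adjusted p 0.155 and 0.594, and r 0.79 without the 2 farthest libraries). The smallest p that 6 libraries can give is 0.00278.

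**Figure D5:**
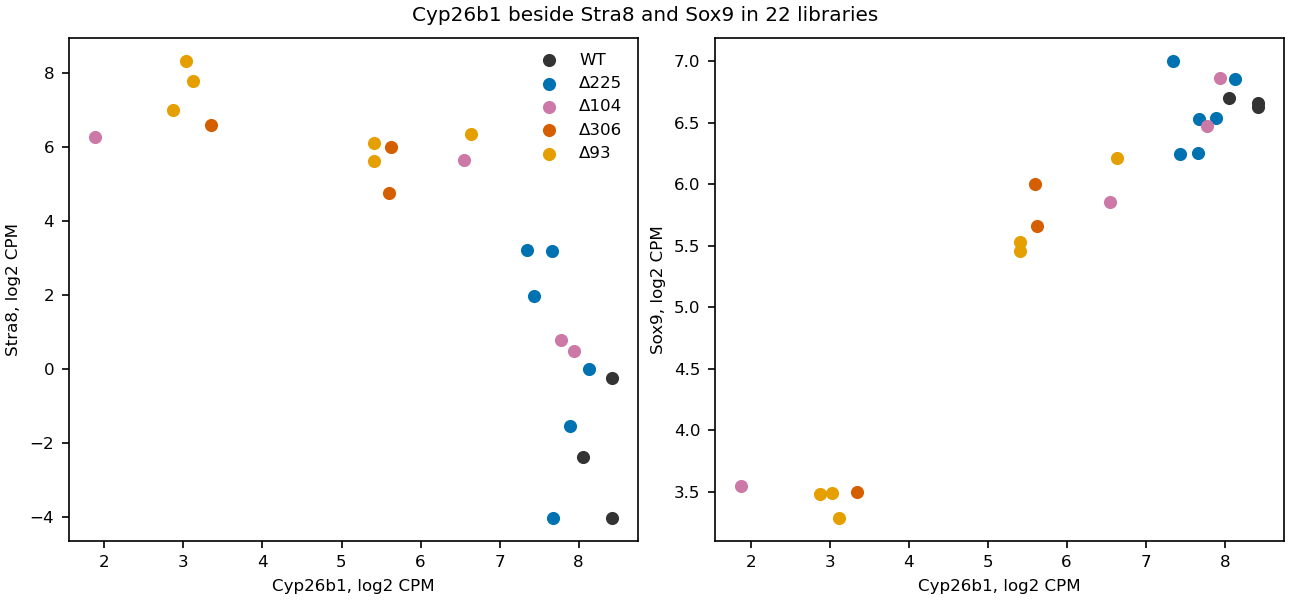
Level of Stra8 (left) and Sox9 (right) against Cyp26b1, in log2 CPM with a prior count of 2, in the 22 libraries of the deletion table, coloured by group. Stra8 is high where Cyp26b1 is low (r −0.81), Sox9 follows Cyp26b1 (r 0.96), and the 4 Δ104 libraries are split between both ends.

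The genes most like Cyp26b1 over the 22 libraries, of 16153 with a mean of at least 1 CPM, were Gdnf (r 0.987), Padi2 (0.986), Serpine2 (0.983), Dtna (0.982) and Rerg (0.982). Gdnf encodes a growth factor secreted by Sertoli cells. Sox9, the Sertoli transcription factor, had r 0.963 and ranked 30, while Foxl2 had −0.84. Nr5a1 and Dmrt1, other gonad transcription factors, had 0.47 and 0.33. Aldh1a1, with r 0.853, ranked 370 in this order, and Crabp1 was the least like Cyp26b1 of the 6 other members compared (−0.65). Cyp26a1 and Cyp26c1, under 1 CPM, were not compared. Among the genes most like Aldh1a1 were Hsd3b1 (0.975), Thbd (0.975), Prss35 (0.973) and Igfbp7 (0.973). Hsd3b1 is a steroid-making enzyme of Leydig cells and is in the fetal Leydig list above.

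Of the 4 regulators set beside Cyp26b1, Foxl2 was the one called against WT, in Δ306 (6.22, adjusted p 0.00541), Δ93 (7.02, adjusted p 9.92e-04) and Meis1 KO (2.90, adjusted p 7.53e-04). In Meis1 KO it reached 6.16 ± 0.581 CPM (n = 4), from 0.821 ± 0.138 in WT. In the deletion table Foxl2 was at 55.7 ± 26.3 CPM in Δ306 and 97.0 ± 44.5 in Δ93. Cyp26b1 was not called in Meis1 KO, and the part of Foxl2 in the level of Cyp26b1 was not tested. Sox9 had −1.27 in Δ306 (adjusted p 0.327) and −1.63 in Δ93 (adjusted p 0.0742), not called, with levels of 41.9 ± 27.5 and 32.7 ± 26.4 CPM against 101 ± 2.78 in WT. Its changes against WT were smaller in size than those of Cyp26b1 in the same groups. That difference was not tested. Nr5a1 had −1.15 in Δ306 (adjusted p 0.0643) and −0.75 in Δ93 (adjusted p 0.109), not called. Its levels there were 170 ± 14.3 and 224 ± 47.8 CPM, against 376 ± 18.45 in WT. Dmrt1 had −0.31 in Δ306 (adjusted p 0.688) and −0.23 in Δ93 (adjusted p 0.697), not called.

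The wider retinoid list, as used, held 24 genes for retinol handling, retinaldehyde production, receptors, cofactors and targets, and all 24 were tested. In Δ306, 2 rose and 2 fell, where 6.43% of all genes were called. In Δ93, 2 rose and 5 fell, where 14.1% of all genes were called. The genes that rose in both were Rec8, a meiotic cohesin subunit that retinoic acid induces, and Meioc, a meiotic gene. Rec8 went from 3.67 ± 0.839 CPM in WT (n = 3) to 78.2 ± 31.1 in Δ306 (n = 3) and 121 ± 47.8 in Δ93 (n = 6), or by 4.42 (adjusted p 0.00545) and 5.04 (adjusted p 9.05e-04) in log2 units. The genes that fell in both were Adh1, an alcohol dehydrogenase that can oxidise retinol (−4.06, adjusted p 0.0274, and −3.95, adjusted p 0.0032), and the receptor Rara (−0.86 and −0.56). Adh5, Adh7 and Fabp5 fell in Δ93. In Δ225, Δ104 and Meis1 KO, 0 of 24 were called against WT. Between deletions, Δ225 against Δ306 had 3 higher and 3 lower (13.2% of all genes called), and Δ225 against Δ93 had 3 higher and 3 lower (20.8%). Δ225 against Δ104 had Rec8 lower (−2.56, adjusted p 0.0346), where 0.645% of all genes were called. The median log2 fold change of the 24 was −0.11 in Δ306 and −0.15 in Δ93, against 0.08 and 0.06 over all genes. These counts are descriptions of a list that was not tested as a set.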

How the data were processed

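Poly(A) RNA was made into strand-specific libraries, per the labels' protocols, and reads were aligned with STAR to mm10, per the submitters' processing notes, which also name featureCounts for WT and Δ306. Counting settings and the annotation of each table are not given in the sources used here. The authors deposited raw counts per gene, and their comparison tables were used only to pair identifiers with symbols. All count columns were used. The WT libraries in the Meis1 table and in the deletion table are the same samples, counted separately, so each test stayed within 1 table.

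edgeR 4.0.16 in R 4.3.3 was run with filterByExpr, TMM and the quasi-likelihood F-test, with Benjamini-Hochberg adjustment over all genes of a comparison (22941 genes and 22 libraries, and 16791 genes and 7 libraries), and genes were called at an adjusted p under 0.05. Tests ran across all genes and were tested on simulated data. CPM are per TMM-scaled library size, log2 CPM use a prior count of 2, lengths are exon unions of GENCODE M21, and SE is the unshrunk estimate over the square root of F. Counts carry no molecular identifiers, and the exact intervals of the Cyp26a1 count ratios cover counting error only. Intervals of log2 fold changes were built from the SE, so they include the spread between libraries. Alternatives were DESeq2 1.42.0, RLE factors, no composition factor, no filter, a replicate block, 2 groups alone, the table of WT and Δ306, leaving out each replicate, and leaving out libraries of low Y-linked level. The members and lists were chosen with earlier results of these data known. Genes named are the members, Stra8, Aldh1a7, the fixed lists and, for Cyp26b1 and Aldh1a1, the 5 genes with the highest r. Certain genes on these lists, or among those of highest r, are not reported here, and list sums and counts were computed without them.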

Additional observations from a re-analysis of the deposited data

Results flagged for a closer look

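Of 40 groups of 4 to 10 libraries examined member by member, 1 had a library far from the others, where chance would give about 5% of them. Cyp26c1 in Δ225 replicate 3 was at 0.145 CPM, from 3 counts, while the next of the 6 Δ225 libraries was at 0.0244 CPM and the other 4 at 0.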

How the results depend on the processing

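Of 248 alternative counts of genes or members called, 79 moved, by more than 1.5-fold or to or from 0. Fold changes were labelled by sign and call only, so the shares that changed cannot be compared between the counts and the fold changes. Of 1087 alternative values of the member and Stra8 fold changes, 994 kept direction and call, 47 lost the call, 18 gained one and 28 changed sign. Genes called numbered, by DESeq2, 2707 in Δ306, 781 in Δ225, 591 in Δ104, 456 in Δ225 against Δ104 and 1439 in Meis1 KO; with no composition factor 26 in Δ104; with no filter 962 in Δ306 and 31 in Δ104. In fits of the 2 groups alone they were 3429 in Δ306, 1 in Δ225, 0 in Δ104, 1945 in Δ225 against Δ306 and 1 in Δ225 against Δ104, and 3101 in the table of WT and Δ306. Without the libraries of low Y-linked level, which left 15, they were 25 in Δ306, 0 in Δ225, 0 in Δ104, 9 in Δ93, and, for Δ225 against Δ306, Δ104 and Δ93, 240, 0 and 546. Leaving out 1 replicate gave 205 to 1310 in Δ306 (lowest without Δ306 replicate 3), 5 to 122 in Δ225, 1 to 528 in Δ104 (highest without Δ104 replicate 4), 1486 to 3572 in Δ93, 887 to 3368 in Δ225 against Δ306, 9 to 557 in Δ225 against Δ104 and 15 to 2204 in Meis1 KO (highest without WT replicate 1). Members called were 1 by DESeq2 in Δ225 against WT and against Δ104, 5 in Δ306 in the table of WT and Δ306, and, without the libraries of low Y-linked level, 0 in Δ306, 0 in Δ93, 1 in Δ225 against Δ306 and 1 against Δ93. Leaving out 1 replicate gave 1 to 2 in Δ306, 0 to 1 in Δ225 against Δ104 and 0 to 1 in Meis1 KO. The cause of these shifts was not tested. Fits of 2 groups alone or with libraries left out had fewer libraries. DESeq2, no composition factor and no filter used the same libraries as the main fit.

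Same-numbered replicates of different groups had correlations of −0.307 to 0.481 (median 0.017) over 35 pairs in the deletion table. Different-numbered ones had −0.661 to 0.508 (median 0.001) over 154 pairs. In the Meis1 table the values were −0.018 to 0.375 (median 0.326) over 3 same-numbered pairs. Over 9 different-numbered pairs they were −0.404 to 0.407 (median −0.189). So few pairs cannot settle whether the numbers pair samples in the Meis1 table. The main fits did not take the numbers to pair samples. With the replicate number as a block, 1638 genes were called in Δ225, 470 in Δ104, 2 in Δ225 against Δ104 and 32 in Meis1 KO, and Rarb changed sign to 0.305 in Δ93 and 0.291 in Meis1 KO.

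The other sign changes were of values that were not called, and Rarb in Δ306 kept its sign. Without the libraries of low Y-linked level, Aldh1a3 was −0.025 in Δ225, Cyp26a1 −0.082 and Crabp1 0.036 in Δ104, and Rarb 0.058 in Δ93. Leaving out 1 replicate gave, for Rarb, 0.453 to 2.065 in Δ306, −1.283 to 0.329 in Δ225, −0.624 to 0.988 in Δ104, −0.452 to 1.16 in Δ93 and −0.508 to 0.903 in Meis1 KO, each highest without WT replicate 1. It gave −0.288 to 0.202 for Crabp1 in Δ104, −0.121 to 0.465 for Aldh1a3 in Δ225 and −0.342 to 0.236 in Meis1 KO, −0.169 to 0.021 for Aldh1a1 in Δ225 and −0.003 to 0.077 in Meis1 KO, −0.028 to 0.871 for Cyp26a1 in Δ104, −0.082 to 0.112 for Crabp2 in Meis1 KO and −0.316 to 0.047 in Δ225 against Δ93. Without the 2 libraries farthest from the median of Stra8, r with Stra8 was −0.17 for Aldh1a1 in Δ225 and 0.497 for Aldh1a3 in Δ93, where it had been 0.475 and −0.48. Low counts limit Cyp26a1 and Cyp26c1, as given above.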
